A study of Mus musculus with 12 samples.

Results

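Susd5, Rasgrf2, Slitrk4, Il5ra, Anks1b, Aox1, Pm20d1 and Bcl6b are 8 protein-coding genes of 27412 gene IDs counted in mouse kidney cortex, all of them measurable in wild-type animals and higher in animals with a HIF2aM3 transgene. They were chosen on these measured values, so their genotype differences are given as a description without a test. All 8 were found by symbol and passed the filter on low counts, as did 19564 genes in all. Every member had at least 33 reads in each WT animal, so none passed only through the transgenic group.

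RNA of a thin outer cortex slice from untreated male C57BL/6 mice was sequenced from both kidneys of 6 animals, which gave 12 libraries. The WT group was 3 wild-type mice, called WT 1, WT 2 and WT 3. The HIF2aM3 group was 3 mice carrying the GGT-HIF2aM3 transgene, called 17-51, 17-53 and 17-56. The comparison asks how the cortex transcriptome differs with the transgene. Ages were not given in the labels. The gamma-glutamyl transferase (GGT) promoter is known to be active in the proximal tubule. The 3 transgenic animals share the prefix 17, and the labels do not say whether they are 1 line, so line and transgene cannot be told apart.

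HIF2α switches on genes when oxygen is low. In normal oxygen it is hydroxylated by prolyl hydroxylases and degraded, and when stable it pairs with ARNT and binds DNA at a short core sequence near its targets. The 8 genes share no single pathway. They encode surface proteins, a Ras activator, a scaffold, metabolic enzymes and a transcriptional repressor.

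Library totals ran from 24032148 to 43499743 counts, apart from kidney 2 of 17-51 with 4161829. Epas1, the mouse gene for HIF2α, was at 196.9, 237.6 and 176.9 CPM (counts scaled to the library total) in WT 1, 2 and 3 and at 277.7, 276.0 and 248.0 CPM in 17-51, 17-53 and 17-56. Its log2 fold change was 0.39 ± 0.11 (SE, edgeR quasi-likelihood test, adjusted p = 0.0881), and without WT 2 the adjusted p was 0.0192. With any other animal left out Epas1 did not pass, with adjusted p up to 0.226. Its lowest log2 fold change was 0.29, without WT 3. The labels do not say whether transgene reads are counted on mouse Epas1, so this is no full check of the labels. Proximal tubule markers were abundant, with summed levels of 16354 to 17750 CPM in WT and 14608 to 16566 CPM in HIF2aM3 animals. Of these 10 markers 1 rose and 1 fell by edgeR, against 3.75% called among all genes tested. Slc5a12 had 0.49 ± 0.10 and Slc22a6 -0.50 ± 0.11 (SE, edgeR adjusted p = 0.0483 for each). With 1 animal left out, each call was kept only without WT 2, with adjusted p up to 0.138 and 0.161.

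RefSeq start sites (build GRCm38.p6) were listed for 5 of the 8 genes: Susd5, Rasgrf2, Il5ra, Anks1b and Aox1. Slitrk4, Pm20d1 and Bcl6b were not matched. The 250 bases before each start were searched on both strands for ACGTG or GCGTG, the letters of the HIF core, and stretches around a match are printed because the transgene encodes a HIF subunit. Capitals mark the match, read 5′ to 3′ on the strand of the gene. CACGC or CACGT in capitals is the core on the opposite strand, and CACGTG holds it on both.
Susd5, chr9:114057248-114057332, plus strand: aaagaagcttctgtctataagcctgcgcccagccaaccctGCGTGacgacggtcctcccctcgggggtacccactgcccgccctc
Rasgrf2, chr13:92131831-92131915, minus strand: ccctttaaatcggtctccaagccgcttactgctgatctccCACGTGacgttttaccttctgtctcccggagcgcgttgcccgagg
Il5ra, chr6:106749038-106749117, minus strand: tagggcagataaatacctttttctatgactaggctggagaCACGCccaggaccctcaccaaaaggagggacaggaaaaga
Anks1b, start site 3, chr10:90576612-90576690, plus strand: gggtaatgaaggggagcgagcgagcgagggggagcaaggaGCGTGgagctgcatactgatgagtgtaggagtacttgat
Aox1, chr1:58029792-58029876, plus strand: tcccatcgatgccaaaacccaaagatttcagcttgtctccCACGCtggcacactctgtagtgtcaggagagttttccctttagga

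The printed matches lie 64 bases before the start in Susd5, 45 in Rasgrf2, 38 in Il5ra, 37 in Anks1b and 135 in Aox1. Rasgrf2 held 3 matches in its window, counting CACGTG on both strands. Anks1b has 5 start sites, of which 3 held a match. Over all windows of these genes 7 of 9 held a match, against 12679 of 32851 windows of the same length in the genome table (38.6%). Counted by gene, 11226 of 27025 genes (41.5%) held a match in at least 1 window. Windows with a match had a median GC content of 58.8% and those without had 49.2%. The Susd5 and Rasgrf2 windows had 59.2% and 65.2%, the Il5ra window 48.0% and the Aox1 window 52.8%. Of the 5 Anks1b windows, those without a match had 70.4% and 49.2%, and those with one had 48.4%, 75.2% and 78.0%. A match is a description of the letters, and binding was not measured here.

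Levels are given as CPM per animal, the reads of both kidneys summed and scaled to the library total with TMM factors, which correct for differences in composition. Log2 fold changes compare HIF2aM3 with WT, and SE is the standard error of the fit. Means are ± SD over 3 animals. The tissue was measured in bulk, so more cells that express a gene and more RNA per cell cannot be told apart.

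Among the surface proteins, Susd5 had the lowest relative spread in the 3 transgenic animals. It encodes a membrane protein with a sushi domain and a link domain, a fold that binds hyaluronan. Susd5 was at 1.41, 1.45 and 1.13 CPM in WT 1, 2 and 3 and at 14.1, 12.1 and 11.7 CPM in 17-51, 17-53 and 17-56. The 2 groups were far apart, since the lowest HIF2aM3 animal was 8.07 times the highest WT animal. The means were 1.33 ± 0.174 and 12.6 ± 1.24 CPM, a log2 fold change of 3.25 ± 0.13 (SE) or 9.48-fold. These levels rest on 241 reads in WT and 2168 reads in HIF2aM3 animals. Single libraries did not overlap either, at 0.964 to 1.83 CPM in WT and 9.80 to 14.4 CPM in HIF2aM3.

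Slitrk4 encodes a transmembrane protein with leucine-rich repeats that is known from neurite outgrowth and synapse formation. Its level was 0.930, 1.03 and 0.636 CPM in WT 1, 2 and 3 and 5.23, 4.77 and 7.26 CPM in 17-51, 17-53 and 17-56. The groups did not overlap, and animal 17-56 was the highest. The means of 0.867 ± 0.207 and 5.75 ± 1.32 CPM gave a log2 fold change of 2.73 ± 0.23 (SE), from 157 reads in WT and 993 in HIF2aM3 animals. The 6 HIF2aM3 libraries, at 4.03 to 7.64 CPM, lay above the 6 WT libraries at 0.582 to 1.10 CPM.

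Il5ra encodes the chain of the interleukin 5 receptor that binds the ligand, and it signals together with the common beta chain Csf2rb. It is known from eosinophils and from a class of B cells. Il5ra was at 9.64, 7.78 and 6.79 CPM in WT 1, 2 and 3 and at 23.8, 23.9 and 29.3 CPM in 17-51, 17-53 and 17-56. The groups did not overlap, and 17-56 was again the highest animal. The means were 8.07 ± 1.45 and 25.7 ± 3.17 CPM, a log2 fold change of 1.67 ± 0.14 (SE).

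Of the signalling proteins inside the cell, Rasgrf2 had the largest fold of the 8. It encodes an exchange factor that activates Ras and Rac proteins in response to calcium. Rasgrf2 was at 4.75, 4.87 and 4.45 CPM in WT 1, 2 and 3 and at 103.9, 87.1 and 49.3 CPM in 17-51, 17-53 and 17-56. The WT animals lay close together, while the transgenic animals differed 2.11-fold among themselves. The means were 4.69 ± 0.217 and 80.1 ± 28.0 CPM, a log2 fold change of 4.09 ± 0.29 (SE) or 17.0-fold. In percent of the mean, the SD was 4.63% in WT and 34.9% in HIF2aM3 animals. The lowest of the HIF2aM3 libraries, kidney 2 of 17-56 at 41.2 CPM, was still 7.57 times the highest WT library.

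Anks1b encodes a scaffold with ankyrin repeats and SAM domains that is known from postsynaptic sites of neurons. It was at 1.92, 2.32 and 3.75 CPM in WT 1, 2 and 3 and at 7.88, 8.43 and 7.49 CPM in 17-51, 17-53 and 17-56. Here the spread was the reverse of Rasgrf2, with an SD of 36.1% of the mean in WT and 5.98% in HIF2aM3 animals. The means of 2.67 ± 0.963 and 7.93 ± 0.475 CPM gave a log2 fold change of 1.57 ± 0.23 (SE). It became 1.89 without WT 3, the animal with the highest WT level. In the annotation used here (GENCODE M21) 7 genes overlap Anks1b without sharing exon bases, and none of them is a row of the table.

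The enzymes were the least and the most abundant of the 8. Aox1 encodes aldehyde oxidase, a molybdenum and flavin enzyme that oxidises aldehydes and drugs and is known from liver. Aox1 was at 0.811, 0.555 and 0.512 CPM in WT 1, 2 and 3 and at 1.48, 1.21 and 1.34 CPM in 17-51, 17-53 and 17-56. The means of 0.626 ± 0.162 and 1.34 ± 0.133 CPM gave a log2 fold change of 1.10 ± 0.22 (SE), from 111 reads in WT and 228 in HIF2aM3 animals. Animals did not overlap, but single libraries did: the lowest HIF2aM3 library was at 0.996 CPM and the highest WT library at 1.01 CPM.

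Pm20d1 encodes a secreted enzyme that joins fatty acids to amino acids and splits them again. It was at 56.4, 50.4 and 53.1 CPM in WT 1, 2 and 3 and at 109.4, 99.5 and 71.9 CPM in 17-51, 17-53 and 17-56. The means of 53.3 ± 3.01 and 93.6 ± 19.5 CPM gave a log2 fold change of 0.81 ± 0.15 (SE), the smallest of the 8 from the largest number of reads, 9635 in WT and 16194 in HIF2aM3 animals. Libraries overlapped here too, since kidney 2 of 17-56 at 60.3 CPM lay below kidney 1 of WT 1 at 62.1 CPM.

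Bcl6b encodes a zinc finger repressor related to Bcl6. It was at 3.44, 5.25 and 4.87 CPM in WT 1, 2 and 3 and at 9.26, 9.75 and 7.70 CPM in 17-51, 17-53 and 17-56. The means of 4.52 ± 0.951 and 8.90 ± 1.07 CPM gave a log2 fold change of 0.97 ± 0.17 (SE). Neither animals nor libraries overlapped between the groups.

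**Figure D1:**
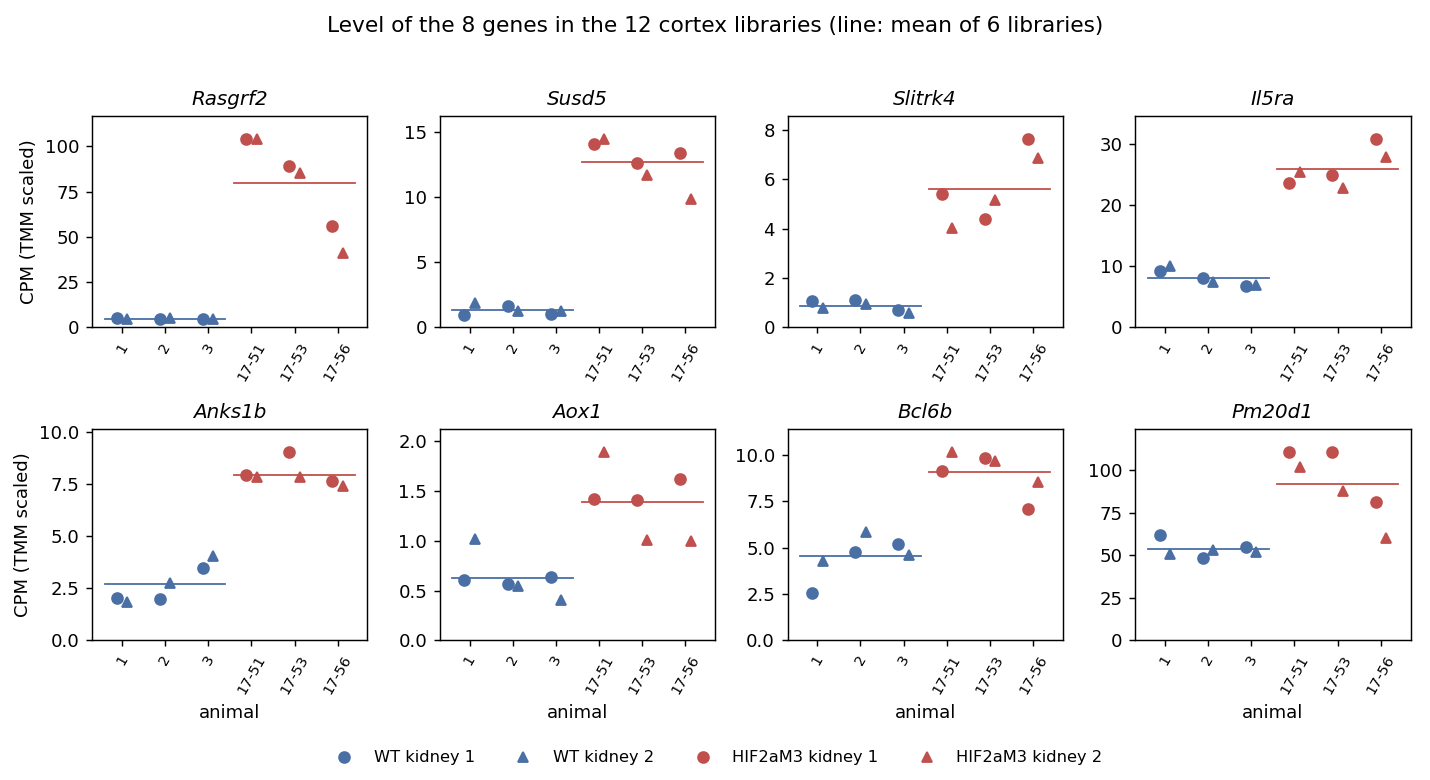
CPM of each of the 8 genes (y axis, from 0) in each animal (x axis), with circles for kidney 1, triangles for kidney 2, blue for WT and red for HIF2aM3, and a line at the mean of the 6 libraries of a genotype. The HIF2aM3 libraries of Rasgrf2 spread from 41.2 to 104.1 CPM, while those of Aox1 and Pm20d1 reach down into the WT range.

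In all 8 genes each HIF2aM3 animal lay above each WT animal. This order was found in 3026 of the 19564 genes tested (15.5%), and the choice of the genes already used it. The order of single libraries was not counted over all genes. The 2 kidneys of an animal are not independent, so libraries that do not overlap are no added support. The median log2 fold change of the 8 genes was 1.62 and that of all genes tested was 0.0049. The authors' deposited table gave log2 fold changes between 0.81 for Pm20d1 and 4.10 for Rasgrf2, and it differed from the edgeR values by at most 0.062, for Aox1. Leaving out each animal in turn moved Rasgrf2 between 3.86 and 4.35, Susd5 between 3.13 and 3.31, and Slitrk4 between 2.52 and 2.88. Il5ra lay between 1.56 and 1.81, Anks1b between 1.38 and 1.89, and Aox1 between 0.97 and 1.31. For Bcl6b the range was 0.81 to 1.08, and for Pm20d1 it was 0.68 to 0.97.

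**Figure D2:**
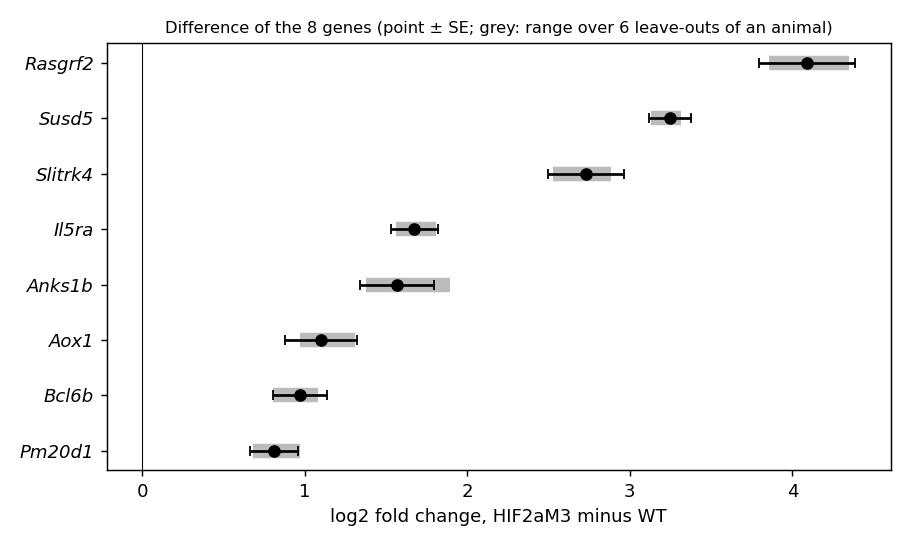
Log2 fold change of HIF2aM3 against WT (x axis) of the 8 genes (y axis), with points and bars for the edgeR value ± SE and grey bands for the range when each of the 6 animals is left out in turn. The bands stay within 0.68 and 4.35, and that of Anks1b reaches from 1.38 to 1.89.

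Levels can be ordered between genes only per transcript length, for which the authors' RPKM (reads scaled to transcript length and library total) served. In WT animals Pm20d1 stood first at 7.44 ± 0.275 RPKM, followed by Il5ra at 1.48 ± 0.262 and Bcl6b at 0.935 ± 0.215. Rasgrf2 at 0.328 ± 0.0252 and Susd5 at 0.314 ± 0.0459 RPKM did not differ beyond their spread. Anks1b at 0.0759 ± 0.0253, Slitrk4 at 0.0636 ± 0.0156 and Aox1 at 0.0546 ± 0.0131 RPKM overlapped as well. In HIF2aM3 animals Rasgrf2 stood at 5.62 ± 1.99 RPKM, beside Il5ra at 4.82 ± 0.550 and below Pm20d1 at 13.1 ± 2.66. Susd5 at 2.99 ± 0.337 RPKM then stood above Bcl6b at 1.90 ± 0.226. Slitrk4 at 0.405 ± 0.102 and Anks1b at 0.229 ± 0.0131 RPKM followed, and Aox1 at 0.122 ± 0.0248 stayed the lowest.

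The 8 genes did not rank the transgenic animals alike. Animal 17-51 was the highest in 4 genes, 17-53 in 2 and 17-56 in 2, and 17-56 was the lowest in 5. These counts include close levels from few reads. Aox1 was at 1.48, 1.21 and 1.34 CPM in 17-51, 17-53 and 17-56, from 48, 104 and 76 reads. After the mean of each genotype was removed from log2 CPM, the 28 pairs of genes had Pearson correlations over the 12 libraries between -0.77 and 0.89, with a median of 0.03 and 14 above 0. Rasgrf2 and Pm20d1 had the highest value, both falling in the order 17-51, 17-53, 17-56. Il5ra and Anks1b had the lowest, -0.77. Slitrk4 and Il5ra, which were both highest in 17-56, had 0.57. These values are descriptions, since the 2 kidneys of an animal are not independent and genes of 1 library share its depth.

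**Figure D3:**
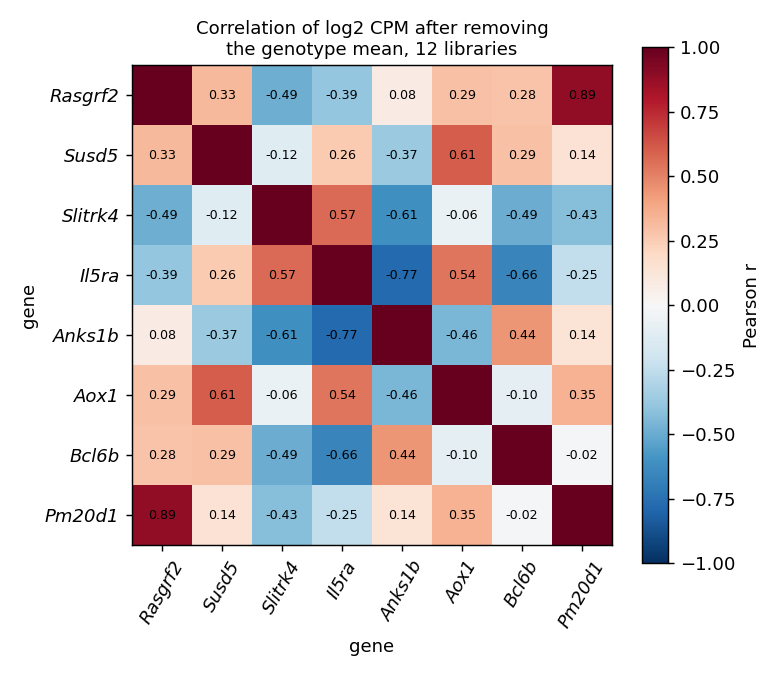
Pearson correlation of log2 CPM for each pair of the 8 genes over the 12 libraries after the genotype mean was removed, in a matrix with genes on both axes and a colour scale from -1 to 1. Rasgrf2 and Pm20d1 stand out at 0.89, and Il5ra and Anks1b lie at the other end at -0.77.

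The 2 kidneys of an animal give a comparison that the choice of the genes did not use. The labels do not say whether kidney 1 is the same side in each animal. A difference between left and right therefore cannot be read from the tests by kidney number. None of the 8 genes passed the test of kidney 2 against kidney 1 with the animal as a block (edgeR quasi-likelihood test), in which 17 of 19034 genes (0.0893%) were called. Pm20d1 came closest. It was lower in kidney 2 in 5 of 6 animals, with a log2 fold change of -0.20 ± 0.07 (SE, edgeR unadjusted p = 0.0262, adjusted p = 0.513). Without WT 2 its value was -0.26 and passed the threshold (edgeR adjusted p = 0.0269). Bcl6b leaned the other way, at 0.17 ± 0.09 (SE, edgeR adjusted p = 0.640), with kidney 2 higher in 4 of 6 animals.

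The other 6 genes had kidney differences between -0.22 ± 0.21 (SE) for Aox1 and 0.01 ± 0.09 for Anks1b on the log2 scale. The sign for Anks1b turned when WT 2 or WT 3 was left out, as it did for Susd5 without 17-56. The 3 largest gaps between kidneys were all in WT 1, 1.90-fold for Susd5, 1.68-fold for Aox1 and 1.67-fold for Bcl6b. No gene of the 19034 tested (0%) was called for a kidney difference that depends on genotype, by edgeR or by DESeq2, and 588 had an unadjusted edgeR p under 0.05. Among the 8, Pm20d1 had the smallest p, the difference of kidney 2 from kidney 1 in HIF2aM3 minus that in WT animals being -0.24 ± 0.11 log2 units (SE, edgeR unadjusted p = 0.0463, adjusted p = 1.00).

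**Figure D4:**
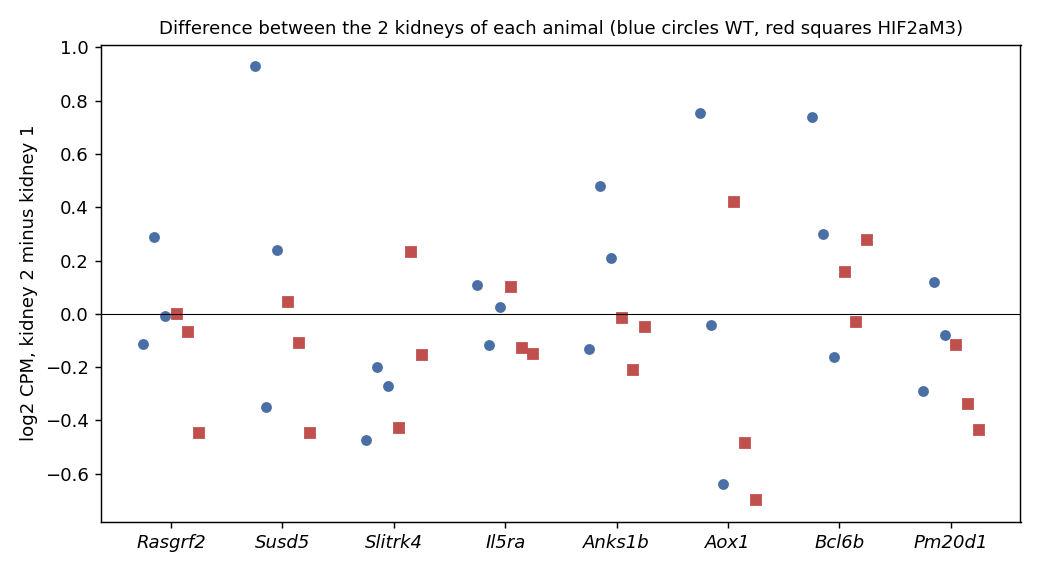
Log2 CPM of kidney 2 minus kidney 1 (y axis) for the 8 genes (x axis), with 1 point per animal, blue circles for WT and red squares for HIF2aM3. Most points of Pm20d1 lie below 0, in 5 of 6 animals, and the largest differences belong to WT 1 in Susd5, Aox1 and Bcl6b.

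The nearest tested gene on each side of the 8, taken from GENCODE M21, gave 16 neighbours. Of these, 6 rose and none fell by the edgeR quasi-likelihood test at an adjusted p of 0.05, where 733 of all 19564 genes tested (3.75%) were called and 377 (1.93%) were called higher. Their median log2 fold change was 0.31, and 12 of 16 were above 0. Beside Pm20d1, Slc26a9, an anion transporter, had 4 reads in WT and 129 in HIF2aM3 animals, and beside Il5ra, Cntn4, a contactin adhesion molecule, had 17 and 85. Both passed the count filter only through the HIF2aM3 animals, so their calls had to come out higher and are no support. Slc26a9 was at 0.0198, 0 and 0.0465 CPM in WT 1, 2 and 3 and at 0.892, 0.966 and 0.299 CPM in 17-51, 17-53 and 17-56.

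The other 4 neighbours called were expressed in both groups. Apaf1, the apoptosome protein beside Anks1b, rose by 0.56 ± 0.10 log2 units (SE, edgeR adjusted p = 0.0342), from 7.64 to 11.3 CPM. Zcchc9 beside Rasgrf2 rose by 0.40 ± 0.08 (adjusted p = 0.0432) and Bzw1 beside Aox1 by 0.38 ± 0.07 (adjusted p = 0.0316). The transcript 4930520O04Rik beside Susd5 rose by 0.82 ± 0.15 (adjusted p = 0.0360). These calls are not firm: leaving out 1 animal kept the call of Zcchc9 only without 17-56, of Apaf1 and 4930520O04Rik only without WT 2, and of Bzw1 only without WT 2 or WT 3. Over these leave-outs the adjusted p reached 0.152 for Zcchc9, 0.0960 for Apaf1, 0.133 for 4930520O04Rik and 0.127 for Bzw1. The log2 fold changes ran from 0.36 to 0.47, 0.47 to 0.61, 0.78 to 0.85 and 0.32 to 0.43 in the same order of genes. Calls over all genes tested changed as well, from 733 to between 11 (without 17-53) and 1549 (without WT 2).

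The other 10 neighbours were not called. Slc41a1, a magnesium transporter on the other side of Pm20d1, had a log2 fold change of -0.0040 ± 0.10 (SE, edgeR adjusted p = 0.988). Slc16a13 at -0.45 ± 0.15 and 0610010K14Rik at -0.32 ± 0.08 beside Bcl6b were not called (edgeR adjusted p = 0.122 and 0.0739), and among the leave-outs of an animal Slc16a13 passed only without WT 2 (adjusted p = 0.0288). Msh3 beside Rasgrf2 had 0.20 ± 0.08 and Fbxl2 beside Susd5 had 0.18 ± 0.08 (edgeR adjusted p = 0.159 and 0.208).

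**Figure D5:**
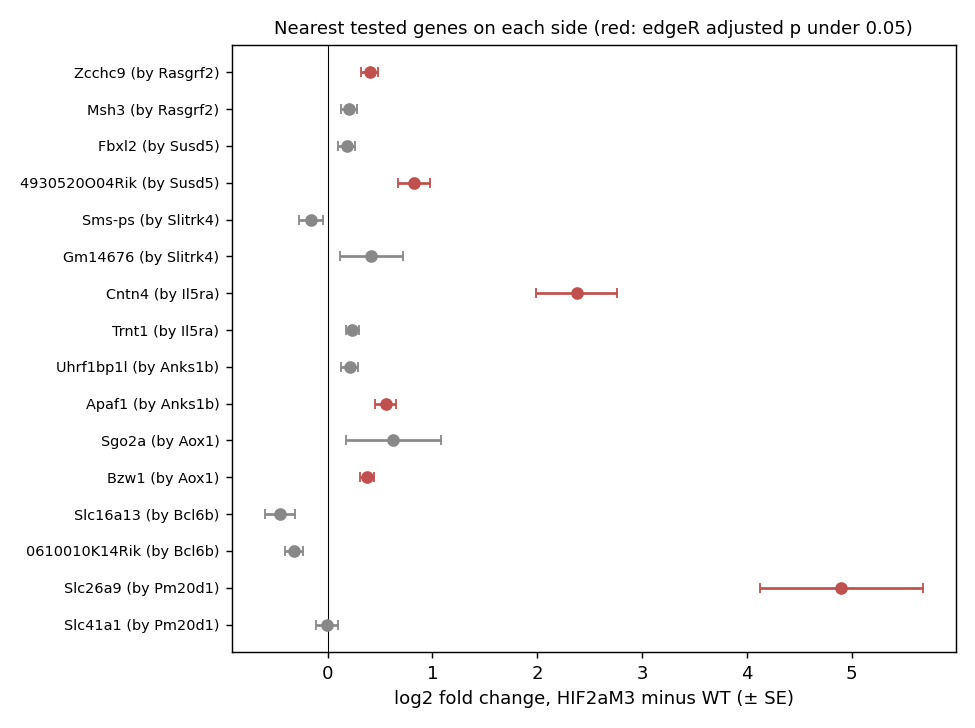
Log2 fold change of HIF2aM3 against WT with its SE (x axis) for the nearest tested gene on each side of the 8 genes (y axis), red where the edgeR adjusted p is under 0.05. The 6 called neighbours lie above 0, and the largest value, that of Slc26a9 at 4.90, rests on 4 reads in WT.

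The families and partners of the 8 genes held 101 measured genes, of which 84 were tested. Of these 3 rose and 1 fell by edgeR, with a median log2 fold change of 0.04, against 3.75% called among all genes tested. In the list of Rasgrf2, 1 of 15 tested genes rose and 1 fell. Rasgrp3, another exchange factor for Ras, went from 11.7 to 18.4 CPM (0.66 ± 0.11, edgeR adjusted p = 0.0294), and Hras, a Ras protein, from 47.2 to 38.3 CPM (-0.30 ± 0.05, adjusted p = 0.0302). Both calls were kept only without WT 2 when animals were left out, with adjusted p up to 0.118 and 0.121. Rasgrf1, the closest relative, had 8 reads in all libraries and was not tested.

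In the list of Slitrk4, 1 of 10 tested genes rose. This was Slitrk6, a related membrane protein, from 6.06 to 10.2 CPM (0.76 ± 0.12, edgeR adjusted p = 0.0265), kept only without WT 2 or 17-51 and reaching 0.113 otherwise. In the list of Susd5, 1 of 10 rose. Hapln1, a link protein that ties hyaluronan to proteoglycans, went from 1.26 to 4.06 CPM (1.68 ± 0.32, edgeR adjusted p = 0.0424), kept only without 17-56 and reaching 0.137 otherwise. Cd44, the main hyaluronan receptor, was at 4.21 and 7.52 CPM and did not pass (edgeR adjusted p = 0.159).

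The lists of Aox1, Pm20d1, Il5ra, Bcl6b and Anks1b held no called gene among 9, 10, 10, 9 and 11 tested. The smallest p in each belonged to Suox (-0.20 ± 0.06, edgeR adjusted p = 0.118), Asah1 (0.32 ± 0.07, adjusted p = 0.0575), Jak2 (0.22 ± 0.06, adjusted p = 0.0859), Zbtb16 (-1.05 ± 0.27, adjusted p = 0.0788) and Dlg1 (0.17 ± 0.05, adjusted p = 0.0739). The other aldehyde oxidases, Aox2, Aox3 and Aox4, had 53, 50 and 17 reads in all and were not tested. Csf2rb, the partner chain of Il5ra, was at 2.15 and 2.41 CPM (edgeR adjusted p = 0.826), and Il5, its ligand, had 12 reads in all libraries. Bcl6 was at 130.8, 120.2 and 115.5 CPM in WT 1, 2 and 3 and at 116.4, 17.4 and 119.6 CPM in 17-51, 17-53 and 17-56, so that 17-53 alone lay far below the rest (edgeR adjusted p = 0.631).

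Markers of the cell types known for Il5ra were counted in the same libraries, and none of those tested passed. Of 9 eosinophil markers 7 were measured, with summed levels of 0.372 to 1.20 CPM in WT and 1.56 to 2.53 CPM in HIF2aM3 animals. Epx, Prg3, Ccr3, Ear1 and Siglecf had 5, 2, 8, 8 and 16 reads in all libraries and were not tested. Prg2 was at 0.354 and 0.860 CPM (log2 fold change 1.24 ± 0.51, edgeR adjusted p = 0.187) and Alox15 at 0.255 and 1.03 CPM (2.01 ± 0.57, adjusted p = 0.0907) in WT and HIF2aM3 animals, and neither passed. The 8 measured B cell and plasma cell markers summed to 17.5 to 98.5 CPM in WT and 136 to 269 CPM in HIF2aM3 animals, most of it Jchain. None of these 8 passed the edgeR test, with Ms4a1 closest at 0.287 and 0.954 CPM (adjusted p = 0.0544). All 8 had log2 fold changes above 0, with a median of 1.29. Among them, Pax5 was at 0.0198 to 0.124 CPM in WT and 0.210 to 0.228 CPM in HIF2aM3 animals. The count filter lay at about 0.165 CPM, so Pax5 passed only through the HIF2aM3 animals. Its value had to be above 0 and is no support. The 2 tested eosinophil markers had a median of 1.63, and Il5ra itself had 1.67. The part of eosinophils and B cells in the Il5ra difference was not tested.

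Bcl6b is known from endothelium among other cells. The 12 endothelial markers summed to 451 to 622 CPM in WT and 677 to 710 CPM in HIF2aM3 animals, without overlap. Of these markers 3 of 12 rose by edgeR, against 1.93% called higher among all genes tested: Kdr, a receptor for vascular growth factor (0.70 ± 0.12, adjusted p = 0.0302), Erg, an endothelial transcription factor (0.62 ± 0.12, adjusted p = 0.0412), and Emcn (0.57 ± 0.12, adjusted p = 0.0458). All 12 had values above 0 with a median of 0.41, beside 0.97 for Bcl6b. The 3 calls were kept only without WT 2, with adjusted p up to 0.118, 0.133 and 0.141 otherwise. Other marker lists also had medians away from 0. The largest were 1.63 for eosinophils (2 of 2 tested above 0) and 1.29 for B cells and plasma cells (8 of 8, of which Pax5 had to be above 0). Fibroblast and mural cells had 0.52 (7 of 8 above 0), leukocytes 0.34 (7 of 8) and hepatocytes 0.21 (4 of 6). Neurons had -0.45 (2 of 4 above 0) and distal nephron and collecting duct -0.32 (0 of 8). In the leukocyte list Csf1r rose (0.58 ± 0.10, edgeR adjusted p = 0.0349), kept only without WT 2 or WT 3. In the distal nephron list Scnn1a (-0.81 ± 0.10, edgeR adjusted p = 0.0143) and Avpr2 (-0.31 ± 0.06, adjusted p = 0.0431) fell. The call of Scnn1a was kept in 4 of 6 leave-outs of an animal, that of Avpr2 only without WT 2. The part of endothelium or of other cells in the Bcl6b difference was not tested.

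For Slitrk4, Anks1b and Rasgrf2, which are known from neurons, the 9 neuronal markers summed to 3.21 to 3.71 CPM in WT and 2.23 to 2.52 CPM in HIF2aM3 animals. The sum differed mainly through Nefm and Elavl3 (0.602 and 0.267 CPM, edgeR adjusted p = 0.0689). Syt1 and Stmn2 had higher means in HIF2aM3 animals, with no call, as did Rbfox3, which was not tested. Snap25, Gap43 and Elavl4 had 3, 3 and 2 reads in all libraries, and Nefm fell by 0.93 ± 0.15 log2 units (edgeR adjusted p = 0.0265, up to 0.111 when an animal other than WT 2 was left out). The part of neurons in these differences was not tested. For Aox1, known from liver, the 9 hepatocyte markers summed to 308 to 462 CPM in WT and 389 to 424 CPM in HIF2aM3 animals, most of it Apob. Of the 6 tested none passed, and they lay in both directions, with Fgb at 1.24 ± 0.46 (edgeR adjusted p = 0.161) and Serpina1a at -1.55 ± 0.48 (adjusted p = 0.115). The part of liver-type cells in the Aox1 difference was not tested.

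The genes most like each of the 8 were sought among 15294 genes by the Pearson correlation of log2 CPM over the 12 libraries, which is driven by the genotype difference used to choose the 8, so they are given without a test. Susd5 was most like Pparg (r = 0.986), a nuclear receptor of lipid metabolism, at 1.01 and 3.75 CPM in WT and HIF2aM3 animals, and Cirbp (r = 0.980), a cold-inducible RNA-binding protein. Rasgrf2 was most like Defb19 (r = 0.995), a defensin, and Apoc3 (r = 0.990), an apolipoprotein. Apoc3 was at 3.38, 2.61 and 3.95 CPM in WT 1, 2 and 3 and at 65.5, 67.3 and 40.2 CPM in 17-51, 17-53 and 17-56, so that 17-56 was the lowest of the transgenic animals as for Rasgrf2. Pm20d1 was most like Egln3 (r = 0.978), a prolyl hydroxylase that acts on HIF proteins, and Slc9a8 (r = 0.973), a sodium and proton exchanger. Egln3 was at 17.5, 14.7 and 16.4 CPM in WT and at 81.8, 62.4 and 29.1 CPM in 17-51, 17-53 and 17-56, in the same order of animals as Pm20d1.

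Il5ra was most like Xiap (r = 0.988), an inhibitor of caspases, and Fhod3 (r = 0.981), a formin. Both were highest in 17-56, as Il5ra was. Slitrk4 was most like Pdgfd (r = 0.972), a growth factor, and Eif4b (r = 0.968), a translation factor. Anks1b was most like Hs6st2 (r = 0.976), a heparan sulfate sulfotransferase, and A2m (r = 0.970), a protease inhibitor. A2m was at 0.141 CPM in WT, from 26 reads, and at 8.55 CPM in HIF2aM3 animals. It reached the mean of 1 CPM only through the HIF2aM3 animals, so its likeness was largely set in advance. Bcl6b was most like Pcdh18 (r = 0.980), a protocadherin, and Adamts5 (r = 0.976), a protease of the matrix. Aox1 had the weakest likeness, with Bmp2 (r = 0.962), a growth factor, and Xpc (r = 0.946), a DNA repair protein.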

How the data were processed

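Raw read counts per Ensembl gene ID and library were deposited by the authors without scaling, per the file headers, in 1 table with their RPKM, log2 RPKM, mean counts per group (a signal), fold ratio, test score and p-values and q-values. Of these the deposited counts, RPKM and log2 fold changes were used. The submitters' processing notes name genome build mm9. The aligner, counter, annotation and strand setting were not given in the sources used here. Symbols came from GENCODE M21, which matched 24630 IDs and left 2782 without one. Its build differs, so it served for names, gene order and overlaps only.

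Counts of both kidneys were summed per animal, since kidneys of 1 animal are not separate animals, and compared between genotypes by edgeR 4.0.16 under R 4.3.3 (quasi-likelihood test, filterByExpr, TMM factors, robust, two-sided), with Benjamini-Hochberg adjustment over all genes tested and a threshold of 0.05. SE was derived from the log2 fold change and the F statistic. Kidney 2 was set against kidney 1 in single libraries, with animal as block. Alternatives used DESeq2 1.42.0 and limma 3.58.1 on RPKM plus 0.1 or 5. The tests were tested on simulated data.

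The 8 genes and the related and marker lists were chosen with earlier results of these data known. Named genes were the 8, up to 4 called genes of a related list or the 1 with the smallest p, the nearest tested gene on each side, and the 2 most correlated genes with a mean of at least 1 CPM. Other genes named in the text were chosen after their values were seen. Promoter sequences are from RefSeq (GRCm38.p6), of which the 250 bases before the start were used. Labels name separate animals, and p-values of the genotype comparison measure the spread between 3 animals of each genotype. Those of the kidney tests with animal as block measure the spread of the kidney difference over 6 animals. Library totals of 4161829 to 43499743 counts limit genes near 1 CPM, above all in kidney 2 of 17-51.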

Additional observations from a re-analysis of the deposited data

Results flagged for a closer look

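In 16 sets of 6 libraries and 8 sets of 6 kidney differences, 2 libraries stood apart from the others of their genotype; chance alone marks about 1 in 20 sets. Anks1b was at 9.04 CPM in kidney 1 of 17-53, above the other 5 HIF2aM3 libraries by 0.682 of the range of all 6. Aox1 was at 1.01 CPM in kidney 2 of WT 1, above the other 5 WT libraries by 0.626 of the range of all 6.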

How the results depend on the processing

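The log2 fold changes of the 8 genes stayed above 0 in all 135 recomputed values. The genes were chosen for rises in these same counts, so that sign was largely set in advance and is no support. Of the 135 values 16 moved by more than the spread. The lowest came from limma on RPKM plus 5, such as 0.02 for Aox1 and 0.04 for Anks1b, where the pseudocount exceeds the level. The count of genes called for genotype was 733, and it became 2058 with DESeq2, 4829 with 12 libraries as replicates, 337 with kidney 2 alone, 140 and 67 with limma on RPKM plus 0.1 and plus 5, and 11 (without 17-53) to 1549 (without WT 2) with 1 animal left out. Without WT 1, WT 3, 17-51 and 17-56 it was 115, 187, 42 and 196. It was 632 without the shallowest library, an alternative added after seeing the data. With library size alone 376 genes were called higher and 249 lower, against 377 and 356. The count for kidney was 17, and it became 59 with DESeq2, 62 with no count filter, 0 with no animal block and 4 to 91 with 1 animal left out. The count for kidney by genotype was 0, and 0 to 1 with 1 animal left out. The sign of Slc41a1 turned to 0.0156 with library size alone, 0.0118 with 12 libraries, 0.0724 with kidney 2 alone, 0.0280 and 0.0155 with limma on RPKM plus 0.1 and plus 5, and ran from -0.0800 to 0.0811 with 1 animal left out. With 1 animal left out the kidney difference of Anks1b ran from -0.0538 to 0.101 and that of Susd5 from -0.182 to 0.0146. Of 514 tested values of single genes, 75 lost their call, 25 gained one and 11 changed sign. The cause was not tested. Depth limits Aox1 and Slitrk4 most. No paired analysis was possible because the groups share no animal or replicate number.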
